A study of Homo sapiens with 4 samples.

Results

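The AP-1 and early response genes examined in NK-92 cells were JUN, JUNB, JUND, FOS, FOSB, FOSL2, BATF, EGR1, NR4A1 and DUSP1. They were chosen by symbol, matched to the table through their Ensembl identifiers, and make up 10 of the 20323 genes listed. All 10 passed the count filter and are among the 11810 genes tested. DUSP1 encodes a phosphatase, and the others encode transcription factors.

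NK-92 is a human natural killer (NK) cell line that depends on interleukin 2, which was in the medium of every culture. Poly(A)-selected RNA was sequenced in 4 libraries, 2 of shscramble cells, which carried a scrambled control hairpin, and 2 of shADAR1 cells, which carried a hairpin against ADAR1, both delivered by lentivirus (pLKO.1-puro). ADAR1 is an enzyme that edits adenosine to inosine in double-stranded RNA. The design text calls the 2 libraries of a group independent biological replicates. The study's text names 1 of its 2 hairpins, shADAR1-2, for this experiment, and the numbers 1 and 2 of the libraries were read as replicates of it. The labels of the shADAR1 libraries, shADAR1-1 and shADAR1-2, are also the names of the 2 hairpins, so a difference between these libraries cannot be told apart from a difference between hairpins by the labels alone. The time from transduction to RNA extraction is not given in the sources used here, and no stimulus other than the interleukin 2 of the medium is described. All cells came from a single line, so differences between donors were not sampled.

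The libraries held 37881704 to 39960491 estimated counts each. ADAR, the targeted gene, had 655 and 682 CPM (counts scaled to a common library size by the TMM method of edgeR) in shscramble and 575 and 482 CPM in shADAR1. Both shADAR1 libraries were the lower ones, but the log2 fold change of -0.34 (standard error 0.20) did not pass the test (edgeR quasi-likelihood, adjusted p = 1.00). The study reported the ADAR1 knockdown in NK-92 cells by qRT-PCR and western blot, assays that are not part of these data. All 8 NK cell markers reached 1 FPKM (fragments scaled by transcript length and library size) in every library, with sums of 3613 to 4117 FPKM. The sums were 2.98 to 7.72 FPKM for 4 B cell markers, 4.94 to 6.72 FPKM for 4 myeloid markers and 0.309 to 0.716 FPKM for 4 melanoma or epithelial markers. PAX5 was the only B cell marker at 1 FPKM or more in every library, with 2.17 to 5.34 FPKM. ITGAM was the only such myeloid marker, with 4.51 to 6.06 FPKM. Of 6 T cell markers, TRAC alone reached 1 FPKM in every library, with 104 to 139 FPKM, and CD8B was at 0.

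AP-1 is a dimer of basic leucine zipper proteins. JUN family proteins pair with each other or with FOS family proteins, and BATF pairs with JUN proteins and can bind DNA together with IRF4 or IRF8. Such dimers bind a short palindrome called the TRE, or the closely related CRE, in promoters and enhancers. In lymphocytes, activating receptors and cytokines switch on MAP kinases, which phosphorylate JUN and the factors that act at the FOS and EGR1 promoters. The JUN, JUNB, FOS, FOSB, EGR1, NR4A1 and DUSP1 transcripts are classical early response transcripts, made within minutes of a signal and quickly degraded. JUND, in contrast, is often made without such a signal.

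The promoters of the 10 genes were searched for 4 elements known from such genes, and windows are shown for 3 of them, to set the letters found beside the genes that hold them. They come from RefSeq (GRCh38.p14), where all 10 genes matched, NR4A1 with 2 promoters and the others with 1. Each promoter runs from 250 bases before to 50 bases after the start site, and both strands were searched. Sequence outside these bounds was not searched, so an element farther from a start site, in FOS for example, would be missed. Capitals mark the match, and each line runs 5′ to 3′ on the strand of the gene. The CArG box, which serum response factor binds, was found in the EGR1 promoter and in 1.29% of 35116 promoters. In EGR1 it began 105 and 83 bases before the start site, in the windows chr5:138465364-138465393 and chr5:138465386-138465415 on the plus strand.
EGR1 upstream CArG box: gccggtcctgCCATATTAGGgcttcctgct
EGR1 downstream CArG box: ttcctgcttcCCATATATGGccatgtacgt

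The CRE, searched as TGACGTCA, was found in the DUSP1 and JUND promoters and in 1.85% of all promoters. It began 125 bases before the DUSP1 start site, in the window chr5:172771303-172771330 on the minus strand, and 200 bases before that of JUND, in the window chr19:18281805-18281832 on the minus strand.
DUSP1 CRE: gcagggcgggTGACGTCAccgccccgtc
JUND CRE: gccgcccccaTGACGTCAacccacaagg

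The TRE, searched as TGANTCA, was found in 1 of the 11 promoters, that of FOSL2, and in 7.71% of all promoters. By the RefSeq start site it began at base 5 of the FOSL2 transcript, in the window chr2:28392852-28392878 on the plus strand. The GENCODE gene given below starts farther upstream, at 28392448. No match of the TRE letters can be a match of the CRE letters, which are longer by a base.
FOSL2 TRE: gccattgtagTGACTCAtctcgggcag

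The TATA box, searched as TATAAA, was found in the FOS, FOSB, JUNB and DUSP1 promoters, where it began 30 to 33 bases before the start site. At any position of the window and on either strand, it was found in 11.5% of all promoters. In the windows searched, JUN, BATF and NR4A1 held none of these 4 sets of letters. A match describes the letters only, and binding was not measured.

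Levels were compared between genes on the FPKM scale, which the authors scaled by transcript length. JUND was the most abundant of the 10, with a mean of 87.5 FPKM over the 4 libraries and a range of 50.2 to 117 FPKM, above BATF in every library. BATF, JUNB and FOSL2 followed with means of 39.9, 31.4 and 23.2 FPKM. The ranges of BATF and JUNB overlapped, as did those of JUNB and FOSL2, and in each of these pairs the former was higher in 3 of 4 libraries. JUN, with a mean of 10.1 FPKM, lay below FOSL2 and above NR4A1 in all 4 libraries. The least abundant of the 10 were NR4A1, FOS, EGR1, DUSP1 and FOSB. NR4A1 averaged 4.83, FOS 4.03, EGR1 2.81 and DUSP1 2.27 FPKM, and the range of each overlapped the next. FOSB was the lowest, at 0.679 to 0.955 FPKM and 85 to 127 estimated counts, below DUSP1 in every library. In these interleukin 2 cultures the FPKM order therefore placed JUND, BATF, JUNB, FOSL2 and JUN above NR4A1, FOS, EGR1, DUSP1 and FOSB.

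**Figure D1:**
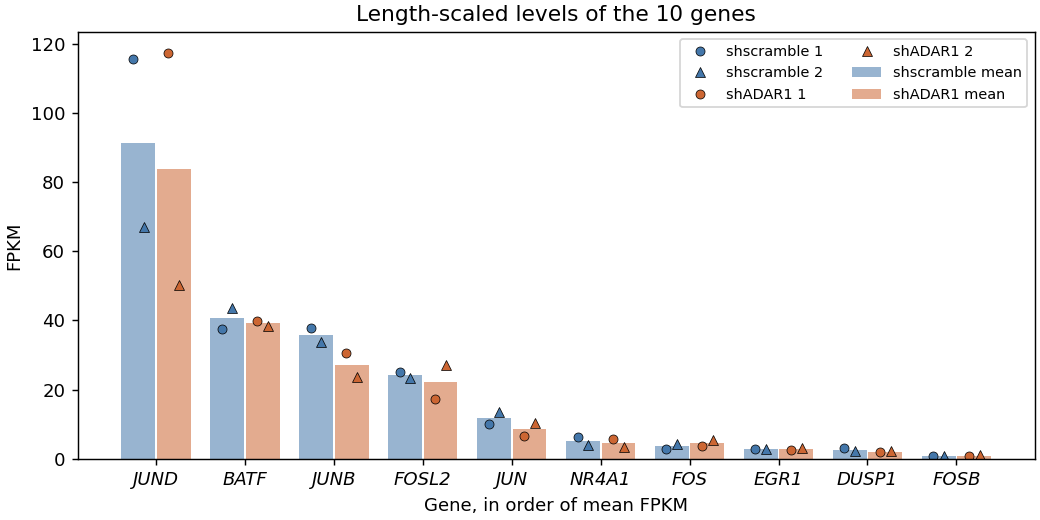
Levels of the 10 genes in FPKM, in order of their mean over 4 libraries. Bars give the mean of 2 libraries per group and symbols the single libraries (circle for replicate 1, triangle for replicate 2). JUND spans 50.2 to 117 FPKM, while FOSB stays between 0.679 and 0.955 FPKM.

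Summed by family, JUN, JUNB and JUND gave 163 and 114 FPKM in shscramble replicates 1 and 2 and 154 and 84.0 FPKM in shADAR1 replicates 1 and 2. JUND made up 70.8% and 76.0% of that sum in the libraries numbered 1 and 58.6% and 59.7% in those numbered 2. JUN made up 4.23% to 12.4% of it. FOS, FOSB and FOSL2 summed to 28.5 and 28.6 FPKM in shscramble and to 21.5 and 33.6 FPKM in shADAR1. FOSL2, also called Fra-2, made up 79.8% to 87.7% of it in every library, and was 4.78 to 8.81 times as high as FOS. The JUN family therefore exceeded the FOS family in FPKM in all 4 libraries, and the sums of the groups overlapped in both families.

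In shADAR1 cells against shscramble cells, none of the 10 genes passed the test. With the edgeR quasi-likelihood test, 0 of 10 had an adjusted p under 0.05 together with a fold change of at least 1.5, where 0.00% of all tested genes did. At an unadjusted p under 0.05 the count was 0 of 10, beside 2.48% of tested genes, and DESeq2 gave 0 of 10 with and without adjustment. Over all genes, DESeq2 run here made 0 calls at the adjusted p and fold change thresholds above. The study did report differentially expressed genes from DESeq2 at those thresholds, and the cause of this difference was not tested. Over all the alternatives run, the count at an unadjusted p under 0.05 was 0 to 2 of 10, and none was called. Log2 fold changes were negative for 7 genes and positive for 3, with a median of -0.15 over the 10 genes and 2.8e-05 over all tested genes. In JUNB, both shADAR1 libraries lay below both shscramble libraries, as they did in 12.6% of tested genes. In 0 of the 10 did both lie above, against 13.3% of tested genes. These are values per library of bulk RNA, so that fewer expressing cells and less RNA per cell cannot be told apart. All p-values adjusted over the tested genes were 1.00 for the 10 genes, with standard errors of 0.20 to 0.39 on the log2 scale.

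**Figure D2:**
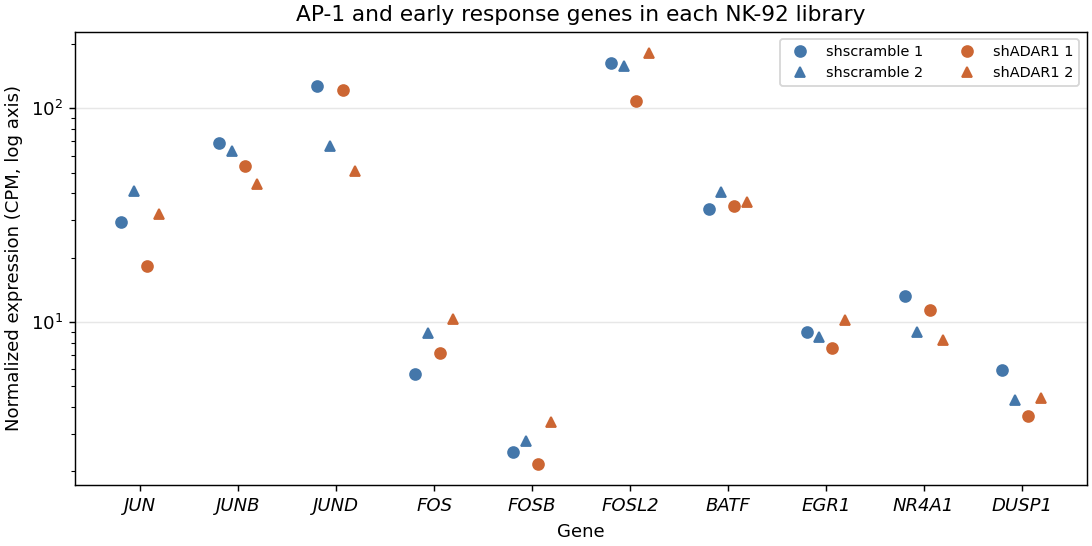
Normalized expression (CPM, log axis) of the 10 genes in each of the 4 libraries. JUNB is the gene with both shADAR1 libraries (53.9 and 44.4 CPM) below both shscramble libraries (68.5 and 63.0 CPM), and in JUND the libraries numbered 1 lie above those numbered 2 in both groups.

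JUNB (ENSG00000171223) encodes a JUN family protein that can act in place of JUN or against it. It had 68.5 and 63.0 CPM in shscramble replicates 1 and 2 and 53.9 and 44.4 CPM in shADAR1 replicates 1 and 2. The groups did not overlap, and the difference between them was larger than the difference within either. Means were 65.8 ± 3.86 CPM in shscramble and 49.2 ± 6.76 CPM in shADAR1 (SD, n = 2 each), and the log2 fold change was -0.42 ± 0.20 (standard error; edgeR, unadjusted p = 0.0638, adjusted p = 1.00). With 1 library left out, it lay between -0.57 and -0.28. JUNB is a single-exon gene on chromosome 19 (12791496 to 12793315, plus strand, GRCh38, GENCODE release 29). An exon of HOOK2 overlaps it on the opposite strand, and whether counting used strand is not given in the sources used here. HOOK2 had 6.54 to 7.96 CPM and a log2 fold change of 0.12.

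JUN (ENSG00000177606) encodes c-Jun, the target of the JNK kinases. It had 29.3 and 41.1 CPM in shscramble and 18.3 and 31.9 CPM in shADAR1 replicates 1 and 2. The groups overlapped, since shADAR1 replicate 2 lay above shscramble replicate 1. The libraries of a group differed 1.40-fold in shscramble and 1.75-fold in shADAR1, and the group difference was 1.40-fold. Its log2 fold change was -0.49 ± 0.28 (standard error, as for the genes below). Without shADAR1 replicate 1 it was -0.14, and without shADAR1 replicate 2 it was -0.94. JUN also consists of 1 exon (chromosome 1, 58780788 to 58784327, minus strand).

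JUND (ENSG00000130522), the JUN family gene often expressed without a stimulus, had 127 and 66.3 CPM in shscramble and 121 and 51.1 CPM in shADAR1 replicates 1 and 2. Both libraries numbered 1 were high and both numbered 2 were low, so the groups overlapped widely. The libraries differed 1.91-fold within shscramble and 2.37-fold within shADAR1, against 1.12-fold between the groups. Its log2 fold change was -0.16 ± 0.39. It turned to 0.38 without shscramble replicate 1 and to 0.33 without shADAR1 replicate 2, and was -0.92 without shADAR1 replicate 1. Differences between replicates of at least this size, in the same direction in both groups, were present in 113 tested genes, or 0.957%.

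The JUND transcript is 1863 bases long in 1 exon on chromosome 19 (18279760 to 18281622, minus strand), with a GC content of 69.7%, above that of 99.7% of tested genes. The difference between replicate 1 and replicate 2 correlated with GC content across 11613 tested genes at a Spearman rho of 0.26 in shscramble and 0.11 in shADAR1. All genes of such a comparison share the same pair of libraries, and these are descriptions without a test. When the trends with GC content and transcript length were taken out of each library, a step chosen after the data were seen, the JUND difference went from 0.93 to 0.24 within shscramble and from 1.25 to 0.45 within shADAR1 on the log2 scale, or to 1.18-fold and 1.37-fold. The part of GC content in the JUND values was otherwise not tested. For JUNB, with a GC content of 64.9%, the log2 fold change was -0.41 after this step. Its replicate difference went from 0.12 to -0.31 within shscramble and from 0.28 to -0.10 within shADAR1. In JUN, FOSB and FOSL2 the replicate difference grew in both groups with this step. In FOS, EGR1, NR4A1 and DUSP1 it shrank in both groups, and in BATF it grew within shscramble and shrank within shADAR1.

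**Figure D3:**
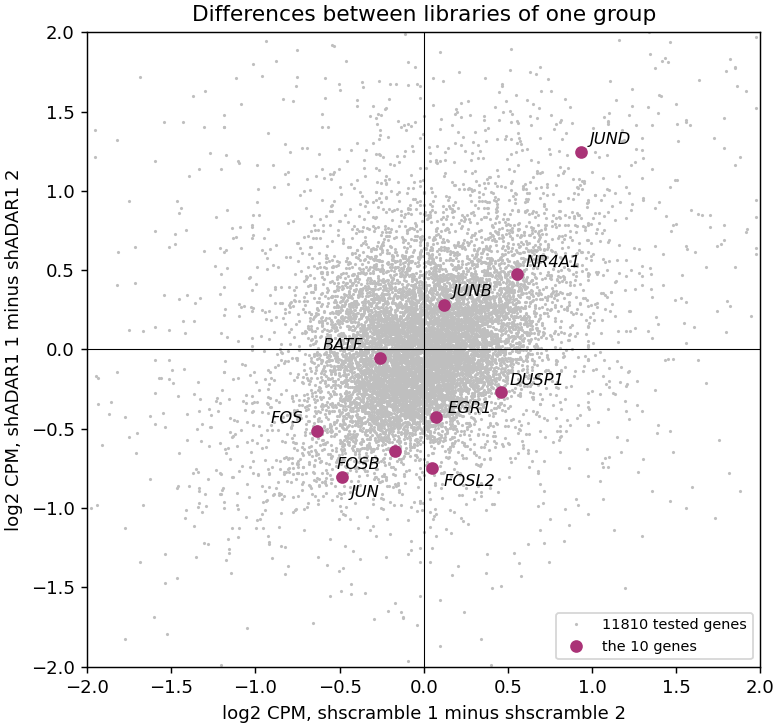
Log2 CPM difference between replicate 1 and replicate 2 within shscramble (horizontal) and within shADAR1 (vertical) for all tested genes in grey and the 10 genes in purple. JUND lies at 0.93 and 1.25, and JUN at -0.49 and -0.81, while BATF and JUNB lie nearer the centre. Of the tested genes, 161 fall outside the axes.

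FOS (ENSG00000170345, chromosome 14, 75278774 to 75282230, plus strand, 4 exons) encodes c-Fos, the partner of JUN proteins made soon after a signal. It had 5.71 and 8.88 CPM in shscramble and 7.20 and 10.3 CPM in shADAR1. The libraries numbered 2 were the higher ones in both groups, and the groups overlapped. At 0.26 ± 0.31, its log2 fold change was the largest positive value among the 10 genes. It was -0.024 without shscramble replicate 1 and -0.017 without shADAR1 replicate 2.

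FOSB (ENSG00000125740, chromosome 19, 45467995 to 45475179, plus strand, 4 exons), a close relative of FOS, had 2.45 and 2.77 CPM in shscramble and 2.16 and 3.40 CPM in shADAR1. The lowest and the highest library were both shADAR1 libraries. FOSB had a log2 fold change of 0.088 ± 0.39, and it was -0.27 without shADAR1 replicate 2.

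FOSL2 (ENSG00000075426, chromosome 2, 28392448 to 28417312, plus strand, 4 exons) had 163 and 157 CPM in shscramble and 108 and 182 CPM in shADAR1. The shscramble libraries lay close together, and the shADAR1 libraries lay on either side of them and differed 1.68-fold. Between the groups, its log2 fold change was -0.14 ± 0.25. It was -0.56 without shADAR1 replicate 2 and 0.18 without shADAR1 replicate 1, so that its direction rested on 1 library.

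BATF (ENSG00000156127, chromosome 14, 75522425 to 75547015, plus strand, 3 exons) encodes a basic leucine zipper protein without a classical activation domain. It had 33.9 and 40.5 CPM in shscramble and 35.0 and 36.3 CPM in shADAR1. Both shADAR1 values fell between the shscramble values. BATF had a log2 fold change of -0.062 ± 0.20, the one nearest to 0 after EGR1, and it stayed between -0.18 and 0.069 with 1 library left out.

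EGR1 (ENSG00000120738, chromosome 5, 138465490 to 138469315, plus strand, 2 exons), a zinc finger factor whose promoter holds the CArG boxes shown above, had 9.02 and 8.55 CPM in shscramble and 7.58 and 10.2 CPM in shADAR1. Here too the shADAR1 libraries enclosed the shscramble libraries. Its log2 fold change was 0.015 ± 0.26, and it lay between -0.21 and 0.21 with 1 library left out.

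NR4A1 (ENSG00000123358, chromosome 12, 52022832 to 52059507, plus strand, 8 exons) encodes Nur77, an orphan nuclear receptor induced by antigen receptor signals in T cells. It had 13.2 and 8.96 CPM in shscramble and 11.4 and 8.19 CPM in shADAR1. As in JUND, both libraries numbered 1 were the higher ones, and the differences within the groups (1.47-fold and 1.39-fold) exceeded that between them (1.13-fold). NR4A1 had a log2 fold change of -0.17 ± 0.28, which turned to 0.13 without shscramble replicate 1 and to 0.048 without shADAR1 replicate 2. An exon of AC025259.3 overlaps NR4A1 on the opposite strand.

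DUSP1 (ENSG00000120129, chromosome 5, 172768090 to 172771195, minus strand, 4 exons) encodes the phosphatase that inactivates the MAP kinases p38, JNK and ERK and is itself an early response gene. It had 5.96 and 4.33 CPM in shscramble and 3.64 and 4.39 CPM in shADAR1, where shADAR1 replicate 2 lay just above shscramble replicate 2. Apart from shscramble replicate 1, the libraries stood close together. DUSP1 had a log2 fold change of -0.36 ± 0.32, and of -0.11 without shscramble replicate 1.

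**Figure D4:**
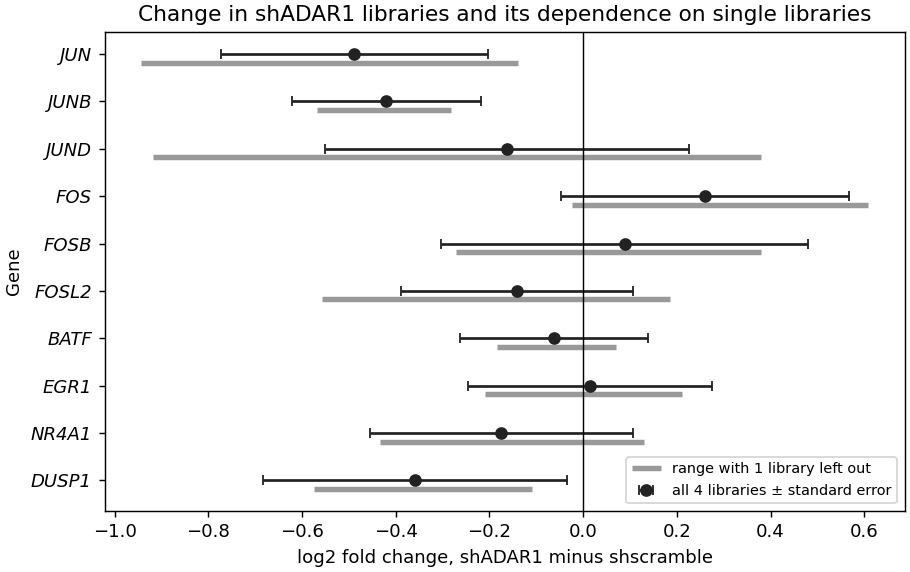
Log2 fold change in shADAR1 against shscramble for the 10 genes. Points with bars give the value from all 4 libraries with its standard error, and grey bars the range when 1 library at a time was left out. The grey bars of JUN, JUNB and DUSP1 stay below 0 and those of the other 7 genes cross 0.

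The 10 genes differed between replicates by a median of 0.36 in shscramble and 0.49 in shADAR1 on the log2 scale, where all tested genes had medians of 0.26 and 0.26. The replicate difference exceeded the group difference in both groups for 5 of the 10 genes, namely JUND, FOS, FOSB, EGR1 and NR4A1, and for 50.3% of tested genes. After the GC and length trends were taken out, the median over the 10 genes and both groups was 0.37, against 0.47 before. No value over all tested genes after this step is given here, so 0.37 cannot be set beside the 0.26 above.

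Among other AP-1 and small Maf genes, 9 of 12 listed genes were tested, and none passed after adjustment. At an unadjusted p under 0.05, 1 was lower and 0 were higher in shADAR1 cells, and the median log2 fold change was -0.22. The lower gene was ATF3, a stress-induced basic leucine zipper factor that pairs with JUN proteins. It had 13.5 and 9.82 CPM in shscramble and 2.64 and 7.52 CPM in shADAR1. The groups did not overlap, and shADAR1 replicate 1 lay far below the others. Its log2 fold change was -1.20 ± 0.42 (edgeR, unadjusted p = 0.0169, adjusted p = 1.00). It was -0.63 without shADAR1 replicate 1 and -2.14 without shADAR1 replicate 2. BATF3, a relative of BATF, had a log2 fold change of -1.09 ± 0.63, which rested on shscramble replicate 1. It had 2.25 CPM in that library and 0.616 to 0.737 CPM in the other 3, and the value was 0.089 without it. The most abundant genes of the list were ATF2, MAFK and ATF7, with means of 20.4, 9.65 and 8.53 FPKM.

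Among kinases and factors upstream of AP-1, all 24 listed genes were tested and none passed after adjustment. At an unadjusted p under 0.05, 0 were lower and 1 was higher, and the median log2 fold change was -0.025. The higher gene was MAP2K6, which encodes the kinase MKK6 that activates p38. It had 6.44 and 8.98 CPM in shscramble and 16.1 and 12.9 CPM in shADAR1, with no overlap. MAP2K6 had a log2 fold change of 0.91 ± 0.26 (edgeR, unadjusted p = 0.00572, adjusted p = 1.00), and 0.69 to 1.16 with 1 library left out. MRTFB, a coactivator of serum response factor, had a log2 fold change of 0.35 ± 0.24, and of 0.048 without shADAR1 replicate 1. MAP2K2, MAP2K1 and MAPK3, the kinases MEK2, MEK1 and ERK1, were the most abundant, with means of 179.9, 61.4 and 58.3 FPKM.

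Among other early response genes, 27 of 33 were tested, with 0 calls and 0 genes at an unadjusted p under 0.05. Of these, 13 had a negative and 14 a positive log2 fold change, with a median of 0.019. The largest values were those of NR4A2 (0.64, standard error 0.42) and EGR2 (0.53, standard error 0.37), relatives of NR4A1 and EGR1. NR4A2 had 6.69 and 18.3 CPM in shscramble and 25.3 and 13.6 CPM in shADAR1, so that its groups overlapped. EGR2 overlapped likewise, with 4.33 and 10.1 CPM against 12.1 and 8.68 CPM. In both, shscramble replicate 1 was the low library and shADAR1 replicate 1 the high one. Without shscramble replicate 1 the log2 fold change was 0.088 for NR4A2 and 0.048 for EGR2, and without shADAR1 replicate 1 it was 0.12 and 0.27. It was 1.54 and 1.26 without shscramble replicate 2. The most abundant genes of this list were ID2, IER2 and RGS1, with means of 230.0, 118 and 83.8 FPKM.

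Among the DUSP phosphatases other than DUSP1, 10 of 11 were tested, again with 0 calls and 0 genes at an unadjusted p under 0.05, and the median log2 fold change was -0.095. DUSP5, an ERK phosphatase of the nucleus, was the most abundant at a mean of 112 FPKM, followed by DUSP22 at 30.4 and DUSP10 at 17.2 FPKM. The largest log2 fold changes were those of DUSP7 (-0.42, standard error 0.25) and DUSP2 (0.39, standard error 0.24). Each rested largely on 1 library, with -0.072 for DUSP7 without shscramble replicate 1 and 0.091 for DUSP2 without shADAR1 replicate 1.

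Of 8 partners of BATF and AP-1 in lymphocytes, 7 were tested, with 0 calls, 0 genes at an unadjusted p under 0.05 and a median log2 fold change of -0.0029. IRF8, which can bind DNA together with BATF and JUN proteins, had a mean of 62.9 FPKM. NFATC3, a calcium-regulated factor that can bind beside AP-1, and PRDM1, which encodes the repressor Blimp-1, had 32.5 and 22.9 FPKM. The largest log2 fold changes were those of the repressors BACH2 (0.71, standard error 0.43) and BACH1 (0.22, standard error 0.21). Without shADAR1 replicate 1, BACH1 had 0.065. BACH2 had 1.30 and 1.17 CPM in shscramble and 1.96 and 2.09 CPM in shADAR1, at a low level of 0.239 FPKM on average.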

How the data were processed

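The table held 2 kinds of values for each of 4 libraries. As deposited, the estimated counts are not scaled for depth. FPKM values were scaled by the authors by transcript length and mapped fragments. The submitters' processing notes name fastp 0.18.0, a read trimming and filtering tool, and the aligner, counting program, build and annotation are not given in the sources used here. Of 20323 identifiers, 20301 matched a symbol. In R 4.3.3, estimated counts were taken to the nearest whole number, and genes with low values were dropped (filterByExpr, minimum 10). The quasi-likelihood test of edgeR 4.0.16 was then run with TMM scaling and without covariates. Calls needed a Benjamini-Hochberg adjusted p under 0.05 over 11810 genes and a fold change of at least 1.5. The standard error is the log2 fold change divided by the square root of F. Replicate differences used log2 CPM (prior count 2). The genes named were all 10 genes and, of each other list, genes at an unadjusted p under 0.05, the 3 with the highest mean FPKM and the 2 with the largest log2 fold change. The genes and lists were chosen with earlier results of these data known.

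Alternatives used DESeq2 1.42.0, other scalings and filters, limma 3.58.1 on log2(FPKM + 0.1), the replicate number as a block, and each library left out in turn. GC content and length (longest coding transcript, GENCODE release 29, known for 98.3% of tested genes) were fitted with splines of 4 degrees of freedom and entered as offsets. Scripts were tested on simulated counts. An exact permutation test of 2 against 2 libraries cannot go below p = 0.333 and was not used.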

Additional observations from a re-analysis of the deposited data

How the results depend on the processing

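Under the 9 alternatives that kept all 4 libraries, all 90 values of the 10 genes kept their direction and none was called. With 1 library left out, 11 of 40 values turned, in 7 genes. Each such fit leaves the replicate numbers unequal between the groups, so a turn cannot be told apart from a difference between replicate numbers. The ranges were -0.92 to 0.38 for JUND, -0.024 to 0.61 for FOS, -0.27 to 0.38 for FOSB, -0.56 to 0.18 for FOSL2, -0.18 to 0.069 for BATF, -0.21 to 0.21 for EGR1 and -0.43 to 0.13 for NR4A1, and -1.73 to 0.089 for BATF3. Over all tested genes, the 0 calls became 1 to 16 with 1 library left out, 13 with a replicate block, 93 with a replicate block and GC and length correction together, and 213 with unadjusted p-values at the same fold change. The cause was not tested. The median of the 10 genes stayed between -0.24 and -0.066, and their median replicate difference moved from 0.47 to 0.37 with the GC and length correction.

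Equal replicate numbers were checked as pairs, although the labels do not say that a number marks a shared batch. Deviations from the group means correlated at r = 0.31 between equal numbers over 11810 genes. With the replicate number as a block, the 7 genes that turned above kept the direction of the main fit. Their log2 fold changes were -0.22 for JUND, 0.27 for FOS, 0.060 for FOSB, -0.19 for FOSL2, -0.056 for BATF, 0.0010 for EGR1 and -0.17 for NR4A1. With the replicate block, JUN had a log2 fold change of -0.52 (edgeR, adjusted p = 0.501) and JUNB of -0.43 (adjusted p = 0.703), and the smallest adjusted p among the 10 genes ranged from 0.212 to 1.00 over all alternatives. At an unadjusted p under 0.05, 0 of the 10 genes became 2 with the replicate block and 2 with the block and the GC and length correction (JUN and JUNB in both, at 0.0101 and 0.0246 with the block alone). The count was 1 with the correction alone (JUNB), 2 without shADAR1 replicate 2 (JUN and FOSL2), 1 without shADAR1 replicate 1 (JUND), 1 without shscramble replicate 1 (JUN) and 0 under each other alternative. ATF3 was called with the block and the GC and length correction together, at -1.28. Both settings with GC and length were added after seeing the data. FOSB had the fewest counts of the 10 genes, 85 to 127 per library.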
